A study of Mus musculus with 6 samples.

Results

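The collagen genes were examined by RNA sequencing in mouse T cells kept in co-culture with ID8, an ovarian cancer line of the mouse. They were taken as every protein-coding gene whose full name reads Col, a number, the letter a and a number, which gave 44 of the 54532 genes measured, on 15 chromosomes. In 3 libraries (cisplatin) the ID8 cells had been pretreated with 40 µM cisplatin, a platinum drug that crosslinks DNA, and in the other 3 (control) they had received buffer (PBS) only. All T cells were isolated from the spleens of C57BL/6 mice with a pan T-cell kit, grown with IL-2 and activated with beads carrying antibodies to CD3 and CD28 before the co-culture. RNA was taken from the T cells after co-culture, and libraries of ID8 cells alone were not analysed here. The labels do not say whether replicates came from separate mice or cultures, so p-values measure the spread between these libraries, which may be technical.

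Collagens are triple-helical proteins of the extracellular matrix, built from 3 chains whose long repeats place glycine at regular steps. Fibril-forming collagens give connective tissue its strength, whereas collagen IV forms the sheet-like network of basement membranes beneath epithelial and mesothelial cells. Chains are hydroxylated and folded in the endoplasmic reticulum, trimmed outside the cell, crosslinked by lysyl oxidases and sensed by integrin and discoidin receptors. T cells are not known as a main source of collagen.

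Levels are given as FPKM, fragment counts scaled for gene length and library size, and fold changes as log2(FPKM + 0.1) in cisplatin minus control libraries, a scale that understates the change of low genes. The whole reads behind each value could be rebuilt, and each library held 30606569 to 32169496 reads on genes. Across all genes, 2034 were called lower and 653 higher (limma, adjusted p under 0.05 and at least 2-fold) of 15874 tested. This split was 1790 to 979 under quantile normalization and 3789 to 137 when libraries were centred on 17 T-cell identity genes, which moved the median log2 fold change of all tested genes from 0.03 to 0.16 and −0.56. The T-cell identity genes summed to 2322–2385 FPKM in cisplatin and 1442–1556 FPKM in control libraries, with log2 fold changes of 0.19 to 0.89 and 0 of 17 past the 2-fold limit. On adjusted p alone (limma), all 17 were higher, where 27.5% of all tested genes were. For all 17 the groups did not overlap, and 17.7% of all genes with reads were separated in this higher direction.

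Markers of other cells were read in the same libraries, where 12.8% of all tested genes were called lower and 4.11% higher. Of 12 epithelial and mesothelial markers of the kind ID8 cells carry, among them the keratin genes Krt8, Krt18 and Krt19 and the mesothelial genes Msln and Wt1, 10 were tested and 9 were lower in the cisplatin libraries, with a median log2 fold change of −2.47. The summed level of the 12 was 177–181 FPKM in cisplatin and 1287–1357 FPKM in control libraries. No marker of the list was at 0 in all libraries, but 2 were under 0.5 FPKM in both group means. The highest group mean of a single marker was 646 FPKM. Fibroblast and pericyte markers summed to 1.12–1.58 FPKM in cisplatin and 1.22–1.49 FPKM in control libraries, with all 10 under 0.5 FPKM in both group means. Endothelial markers summed to 4.05–4.53 FPKM in cisplatin and 14.3–15.1 FPKM in control libraries. Of the 7, 3 were tested and 2 called lower, Tek and Esam, with log2 fold changes of −2.61 to −0.48 (median −1.81). The highest group mean in the list was 9.71 FPKM, and 4 genes, among them Cdh5 and Emcn, were under 0.5 FPKM in both group means. With limma voom on the rebuilt reads, 5 were tested, and on adjusted p alone 3 were lower and 1 higher. By that rule 25.6% of all genes voom tested were lower and 31.7% higher. Myeloid markers (11 genes, 10 tested, 7 called higher) summed to 129–148 FPKM in cisplatin and 65.9–70.2 FPKM in control libraries. The highest group mean of a single myeloid marker was 89.7 FPKM, and log2 fold changes were −0.47 to 2.75 (median 1.44). On adjusted p alone (limma), 8 myeloid markers were higher and 1 was lower, where 27.5% and 29.0% of all tested genes were. B-cell markers (6 genes, all tested, 1 called higher) summed to 3522–3605 FPKM in cisplatin and 1618–1698 FPKM in control libraries. A single B-cell marker reached a group mean of 3220 FPKM and so made up most of the larger sum. Log2 fold changes of the 6 were 0.38 to 1.17 (median 0.71). The part of these cells in the results below was not tested. In bulk RNA, fewer cells of a type and less RNA per cell cannot be told apart.

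Collagen transcripts as a whole were lower in the cisplatin libraries, and nearly all of the difference lay in collagen IV. The 44 genes summed to 160, 160 and 148 FPKM in control libraries 1 to 3 and to 40.6, 41.7 and 39.1 FPKM in cisplatin libraries 1 to 3. The means were 156 ± 6.98 and 40.5 ± 1.30 FPKM (SD, n = 3 each), a 3.85-fold difference with no overlap. In rebuilt reads, the family held 31744 to 33559 per control library and 8753 to 9416 per cisplatin library. Collagen IV accounted for 134 ± 5.09 of this FPKM in control and 20.5 ± 0.635 in cisplatin libraries (SD, n = 3 each), a 6.54-fold difference. The remaining 38 genes summed to 21.4 ± 2.05 FPKM in control and 19.95 ± 0.763 FPKM in cisplatin libraries (SD, n = 3 each), and these ranges overlapped. Collagen IV made up 86.2% ± 0.765 of the collagen FPKM in control libraries but 50.7% ± 0.659 in cisplatin libraries, while the fibril-forming genes went from 5.56% ± 0.183 to 30.2% ± 0.400 (SD, n = 3 each). In FPKM the fibril-forming sum was 8.67 ± 0.663 in control and 12.2 ± 0.443 in cisplatin libraries (SD, n = 3 each), a 1.41-fold difference, beside the 6.54-fold lower collagen IV sum in the same total. Within this fibril-forming sum, the single gene Col11a2 went from a mean of 5.09 FPKM in control to 9.57 FPKM in cisplatin libraries. The 3 fibril-forming genes tested had a median log2 fold change of −0.42, so the higher sum does not describe the subfamily as a whole.

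**Figure D1:**
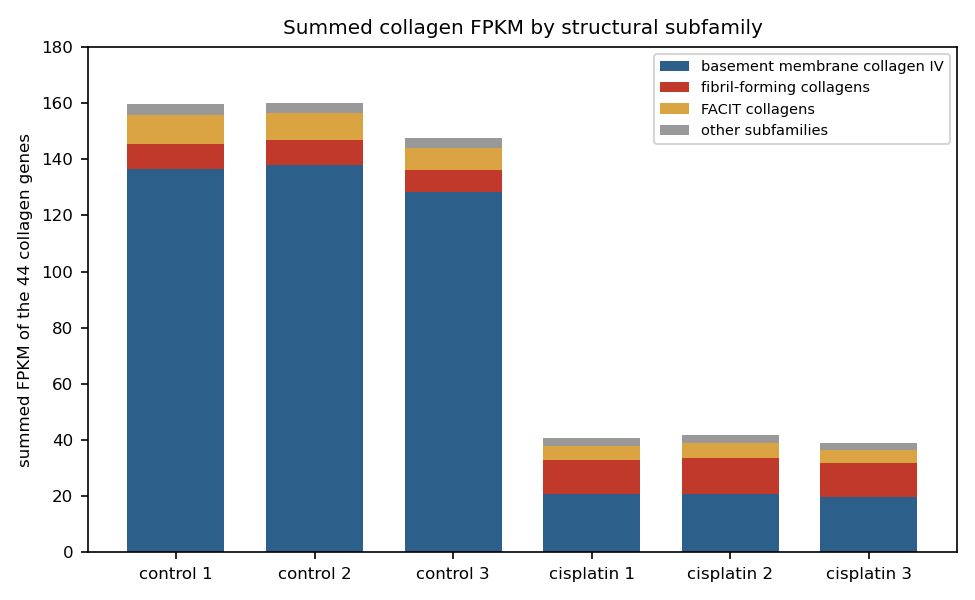
Summed FPKM of the 44 collagen genes (vertical axis, from 0) in each of the 6 libraries, stacked by structural subfamily. Collagen IV falls from 134 FPKM on average in control to 20.5 FPKM in cisplatin libraries, while the part above it averages 21.4 and 19.95 FPKM.

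The members differed in how far they moved. A single gene, Col3a1, had 0 reads in all 6 libraries, which allows up to 3 reads or about 0.0102 FPKM in any library. Of the 43 genes with reads, 11 reached the mean of 0.5 FPKM needed for the test and 33 of the 44 did not, the highest of them at a mean of 0.452 FPKM. Among the 11 tested, 5 were called lower and 0 higher by limma, where 12.8% of all tested genes were called lower and 4.11% higher. On adjusted p alone (Benjamini-Hochberg), 6 were lower and 1 higher, with 29.0% and 27.5% of all tested genes. Over all 43 genes with reads, the median log2 fold change was −0.18, against −0.01 for the 33456 genes with any read, and the groups did not overlap for 13 lower and 4 higher genes. Such separation occurred in 19.8% of all genes with reads in the lower and 17.7% in the higher direction.

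**Figure D2:**
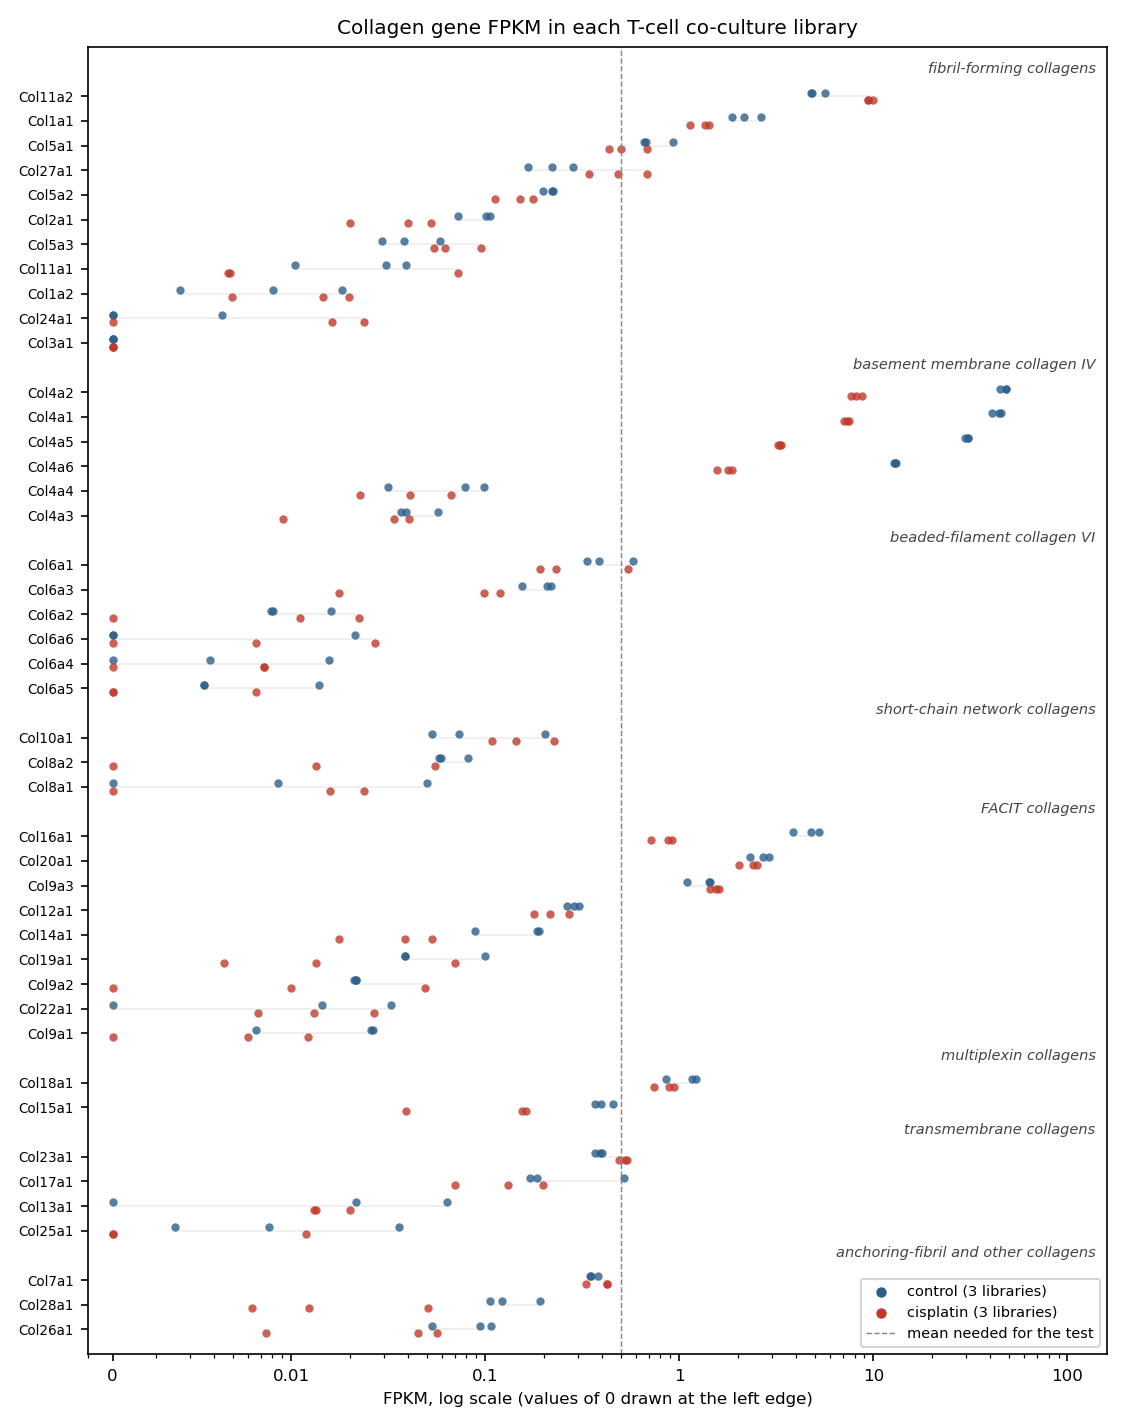
FPKM of each collagen gene (log axis, values of 0 at the left edge) in the 3 control and 3 cisplatin libraries, grouped by subfamily; the dashed line marks the mean of 0.5 FPKM needed for the test. Col4a1, Col4a2, Col4a5, Col4a6 and Col16a1 separate widely to the left in cisplatin libraries, and Col11a2 separates to the right.

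Basement membrane collagen IV has 6 chains, which assemble in fixed partnerships: alpha1 with alpha2, alpha5 with alpha6, and alpha3 with alpha4 and alpha5. The genes lie in head-to-head pairs in the mouse genome (GRCm38). Col4a1 (chr8:11198423-11312826, minus strand) and Col4a2 (chr8:11312805-11449287, plus strand) share 22 bases at their starts. Col4a6 (chrX:141165403-141474076, minus strand) and Col4a5 (chrX:141475385-141689234, plus strand) start 1308 bases apart, and Col4a4 and Col4a3 on chromosome 1 start 71 bases apart. The first 2 pairs held 4 of the 5 called genes. The stretches upstream of the X-linked pair are shown because both genes fell and flank this interval, and that of Col11a2 because its level was higher in the cisplatin libraries. They come from the RefSeq promoter table (GRCm38.p6), which held 38 windows for 35 of the 44 genes, each 250 bases before and 50 bases after a start. Bases annotated as exon were left out, so nothing is printed for Col4a1 and Col4a2. Each is written 5′ to 3′ on the gene's strand, with capitals for any of 5 motifs searched on both strands.
Col4a6 (chrX:141474077-141474326, minus strand): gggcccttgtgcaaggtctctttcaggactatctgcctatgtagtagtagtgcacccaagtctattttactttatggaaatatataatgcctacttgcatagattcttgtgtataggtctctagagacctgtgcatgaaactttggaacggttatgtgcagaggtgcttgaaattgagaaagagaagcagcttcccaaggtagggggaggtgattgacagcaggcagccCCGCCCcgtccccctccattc
Col4a5 (chrX:141475169-141475384, plus strand): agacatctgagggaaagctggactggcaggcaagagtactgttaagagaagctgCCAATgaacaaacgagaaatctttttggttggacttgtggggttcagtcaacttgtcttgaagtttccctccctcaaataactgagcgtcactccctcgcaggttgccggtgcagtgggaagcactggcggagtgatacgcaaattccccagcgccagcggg
Col11a2 (chr17:34038888-34039137, plus strand): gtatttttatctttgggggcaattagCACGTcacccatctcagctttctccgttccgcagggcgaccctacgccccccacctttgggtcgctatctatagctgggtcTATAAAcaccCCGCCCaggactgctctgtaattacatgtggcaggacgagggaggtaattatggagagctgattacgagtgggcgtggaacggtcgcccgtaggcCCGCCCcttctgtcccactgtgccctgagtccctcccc

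The motifs searched were the TATA box (letters TATAAA), the element with the letters CCAAT, the GC box (letters GGGCGG), the AP-1 site (letters TGACTCA) and the core bound by hypoxia-inducible factors (letters ACGTG). On the opposite strand the GC box reads CCGCCC and the hypoxia core reads CACGT. The Col4a6 stretch held 1 GC box near its end, the Col4a5 stretch 1 CCAAT element, and the Col11a2 stretch a TATA box between a hypoxia core and a GC box, with a second GC box further on. The full Col4a5 window held a GC box too, but not within the printed stretch, which ends 34 bases before the RefSeq start. The Col11a2 window belongs to a RefSeq start 299 bases before the gene's first base in the table. Over the 38 collagen windows, the GC box occurred in 60.5%, against 35.7% of all 32851 windows. The CCAAT element occurred in 34.2% of collagen and 37.4% of all windows, the TATA box in 13.2% and 13.6%, the hypoxia core in 13.2% and 19.6%, and the AP-1 site in 2.63% and 5.2%. A match describes letters in the window only.

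Col4a1 and Col4a2 encode the alpha1 and alpha2 chains of the collagen IV found in almost every basement membrane. Col4a2 was at 48.5, 48.3 and 44.8 FPKM in control libraries 1 to 3 and at 8.12, 8.69 and 7.63 FPKM in cisplatin libraries 1 to 3. Col4a1 was at 44.2, 45.7 and 40.9 FPKM in control and at 7.46, 7.32 and 7.06 FPKM in cisplatin libraries. For both genes every cisplatin library lay far below every control library. The log2 fold change was −2.52 ± 0.06 for Col4a2 (SE, 5.79-fold lower, limma adjusted p = 2.72e-07) and −2.57 ± 0.05 for Col4a1 (SE, 5.99-fold lower, limma adjusted p = 1.54e-07). Each was lower in 3 of 3 cisplatin libraries. Exons of the 2 genes and their antisense neighbours overlap over 0.295% of Col4a1 and 0.982% of Col4a2, and whether reads were counted by strand is not given in the sources used here.

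Col4a5 and Col4a6 encode the alpha5 and alpha6 chains, which join in basement membranes of epithelia and smooth muscle; loss of Col4a5 underlies X-linked Alport syndrome. Col4a5 was at 30.7, 30.8 and 29.7 FPKM in control libraries and at 3.36, 3.31 and 3.21 FPKM in cisplatin libraries. Col4a6 was at 12.9, 13.1 and 12.8 FPKM in control and at 1.86, 1.57 and 1.79 FPKM in cisplatin libraries. Neither gene overlapped between groups, and replicates lay close together. The log2 fold change was −3.17 ± 0.04 for Col4a5 (SE, 9.22-fold lower, limma adjusted p = 5.94e-08) and −2.82 ± 0.08 for Col4a6 (SE, 7.41-fold lower, limma adjusted p = 4.65e-07). Exons of Col4a5 and Col4a6 share no bases with other annotated genes. Over the 17 alternative settings, log2 fold changes of the 4 chains stayed between −3.75 and −2.34, and all were called in each of them.

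Col4a3 and Col4a4, whose chains are known from the glomerulus, cochlea and lung, were nearly silent. Over all 6 libraries Col4a3 had 67 reads and Col4a4 had 112 reads, whereas Col4a1 had 1709 or more in every library. Neither reached the level needed for the test. With limma's voom on the rebuilt reads, their log2 fold changes were −0.77 ± 0.66 for Col4a3 (SE, adjusted p = 0.33) and −0.56 ± 0.57 for Col4a4 (SE, adjusted p = 0.418). With so few reads, differences of this size were not detectable.

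The proportions of the collagen IV transcripts were compared within libraries for 3 of 4 pairs of genes, the last being Col16a1 and Col4a1. The ratio of Col4a1 to Col4a2 FPKM was 0.924 ± 0.020 in control and 0.896 ± 0.046 in cisplatin libraries (SD, n = 3 each, exact permutation test, two-sided p = 0.6, Benjamini-Hochberg p = 0.6). The ratio of Col4a5 to Col4a1 was 0.694, 0.672 and 0.726 in control and 0.451, 0.452 and 0.455 in cisplatin libraries. The ratio of Col4a6 to Col4a5 was 0.420, 0.425 and 0.430 in control and 0.554, 0.474 and 0.557 in cisplatin libraries. Neither of the last 2 ratios overlapped between groups, with Col4a5 lower relative to its partner and to Col4a1 in the cisplatin libraries. Both gave an exact permutation p of 0.1 (two-sided; Benjamini-Hochberg p = 0.2), the smallest that 3 against 3 libraries allows, so the design cannot reach 0.05. The ratio of Col16a1 to Col4a1 was 0.106 ± 0.013 in control and 0.114 ± 0.011 in cisplatin libraries (SD, n = 3 each, exact permutation p = 0.4, Benjamini-Hochberg p = 0.533).

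Among fibril-forming collagens, 3 of 11 genes were tested, 0 were called, and the most abundant of them, Col11a2, was higher on adjusted p alone. Col11a2 (chr17:34039437-34066685) encodes the alpha2 chain of collagen XI, a minor fibril component best known from cartilage. Col11a2 was at 5.65, 4.82 and 4.78 FPKM in control and at 9.36, 9.97 and 9.40 FPKM in cisplatin libraries. Every cisplatin library lay above every control library. The log2 fold change was 0.90 ± 0.08 (SE, 1.88-fold, limma adjusted p = 8.39e-05), short of the 2-fold limit. It was called higher with voom (1.001, adjusted p = 9.15e-12) and under quantile normalization (1.06, adjusted p = 3.53e-05), whereas centring on the T-cell identity genes left 0.32 (adjusted p = 0.0142). The median of all tested genes was also higher with voom (0.10) and under quantile normalization (0.16) than in the main test (0.03). Col11a1, the alpha1 chain of the same collagen, had 2 to 30 reads per library.

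Col1a1 and Col1a2 encode the chains of collagen I, the main collagen of bone, skin and tendon. Col1a1 was at 2.17, 2.64 and 1.87 FPKM in control and at 1.14, 1.43 and 1.35 FPKM in cisplatin libraries, with no overlap. Its log2 fold change was −0.72 ± 0.16 (SE, limma, adjusted p = 0.00887), under the 2-fold limit except when centred on the T-cell identity genes (−1.30). Col1a2 had 27 reads over all 6 libraries, against 242 to 519 reads of Col1a1 in each library. Col1a2 and Col3a1, the chain of collagen III, are usually expressed with Col1a1 in fibroblasts, and Col3a1 had 0 reads here. Col5a1 was at 0.659, 0.923 and 0.672 FPKM in control and at 0.502, 0.682 and 0.432 FPKM in cisplatin libraries, and these overlapped (log2 fold change −0.42 ± 0.28, SE, limma adjusted p = 0.241), though Col5a1 was called lower when centred on the T-cell identity genes (−1.004, adjusted p = 0.0151).

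FACIT collagens, which sit on the surface of fibrils and carry interrupted triple helices, had 3 of 9 genes tested and 1 called lower. Col16a1 (chr4:130047840-130099283) encodes collagen XVI. Col16a1 was at 5.26, 4.76 and 3.83 FPKM in control and at 0.916, 0.872 and 0.718 FPKM in cisplatin libraries, with no overlap. The log2 fold change was −2.33 ± 0.16 (SE, 5.53-fold lower, limma adjusted p = 2.58e-05). Col20a1 had 2.30 to 2.89 FPKM in control and 2.03 to 2.5 FPKM in cisplatin libraries, which overlapped (log2 fold change −0.18, limma adjusted p = 0.267), with 0.02 under quantile normalization and −0.77 (adjusted p = 0.00162) when centred on the T-cell identity genes. Col9a3 had 1.09 to 1.437 FPKM in control and 1.441 to 1.61 FPKM in cisplatin libraries, which narrowly did not overlap. Its log2 fold change was 0.21 (limma adjusted p = 0.282), and −0.37 when centred on the T-cell identity genes. Of its exon bases, 6.07% are shared with Tcfl5 on the opposite strand. Col18a1, a multiplexin that is the source of endostatin, had 0.859 to 1.23 FPKM in control and 0.739 to 0.937 FPKM in cisplatin libraries, which overlapped (log2 fold change −0.30, limma adjusted p = 0.254), with −0.89 (adjusted p = 0.00678) when centred on the T-cell identity genes.

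The order of the levels changed with these differences. In control libraries Col4a2 and Col4a1 came first and overlapped each other, followed without overlap by Col4a5 and Col4a6 and then by Col11a2 and Col16a1, which overlapped. In cisplatin libraries Col11a2 came first at 9.57 ± 0.339 FPKM (SD, n = 3), above Col4a2 at 8.15 ± 0.530 FPKM, Col4a1 at 7.28 ± 0.200 FPKM and Col4a5 at 3.30 ± 0.0747 FPKM, with no overlap between neighbours. Col4a6 (1.74 FPKM) overlapped Col9a3 (1.53 FPKM) there, and Col16a1 (0.835 FPKM) overlapped Col18a1 (0.853 FPKM).

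The other 32 genes with reads had group means from 0.00146 to 0.518 FPKM and were below the level of the test. Their groups overlapped for 23, with 7 lower and 2 higher in all cisplatin libraries. Among all genes with reads, 19.8% were separated in the lower and 17.7% in the higher direction, so the 7 lower genes lie near that share. The voom fit on rebuilt reads, which needed 10 reads in 3 libraries, reached 29 of the 44 genes. It called 10 lower and 2 higher, where 13.1% and 6.08% of all genes it tested were called lower and higher. On adjusted p alone it found 11 lower and 2 higher, with 25.6% and 31.7% of all genes it tested. The 5 further genes called lower were low in absolute level. Col15a1, the second multiplexin, had 87, 70 and 77 reads in control and 8, 34 and 32 reads in cisplatin libraries (log2 fold change −1.90 ± 0.43, SE, limma voom adjusted p = 0.000541). Col6a3, a beaded-filament chain of collagen VI, had 78, 75 and 57 reads in control and 46, 7 and 38 reads in cisplatin libraries (−1.60 ± 0.47, SE, limma voom adjusted p = 0.0058).

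In both genes the lowest library was a cisplatin library that lay well apart from the other 2. Col14a1, a FACIT collagen, had 19 to 40 reads in control and 4 to 12 in cisplatin libraries (−1.98, limma voom adjusted p = 0.00682). Col28a1 had 16 to 28 reads in control and 1 to 8 in cisplatin libraries (−2.73, adjusted p = 0.0045). Col2a1, the main cartilage collagen, had 20 to 30 and 6 to 16 reads (−1.27, adjusted p = 0.0463). Besides Col11a2, the gene called higher was Col27a1, a fibril-forming collagen. Col27a1 had 111, 86 and 66 reads in control and 286, 148 and 204 reads in cisplatin libraries (1.22 ± 0.27, SE, limma voom adjusted p = 0.000384), so all cisplatin libraries lay above all control libraries. The 12 other low genes that voom reached had log2 fold changes from −1.43 to 0.80 and adjusted p from 0.0722 to 0.471. For the 15 genes it did not reach, no library held more than 21 reads.

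**Figure D3:**
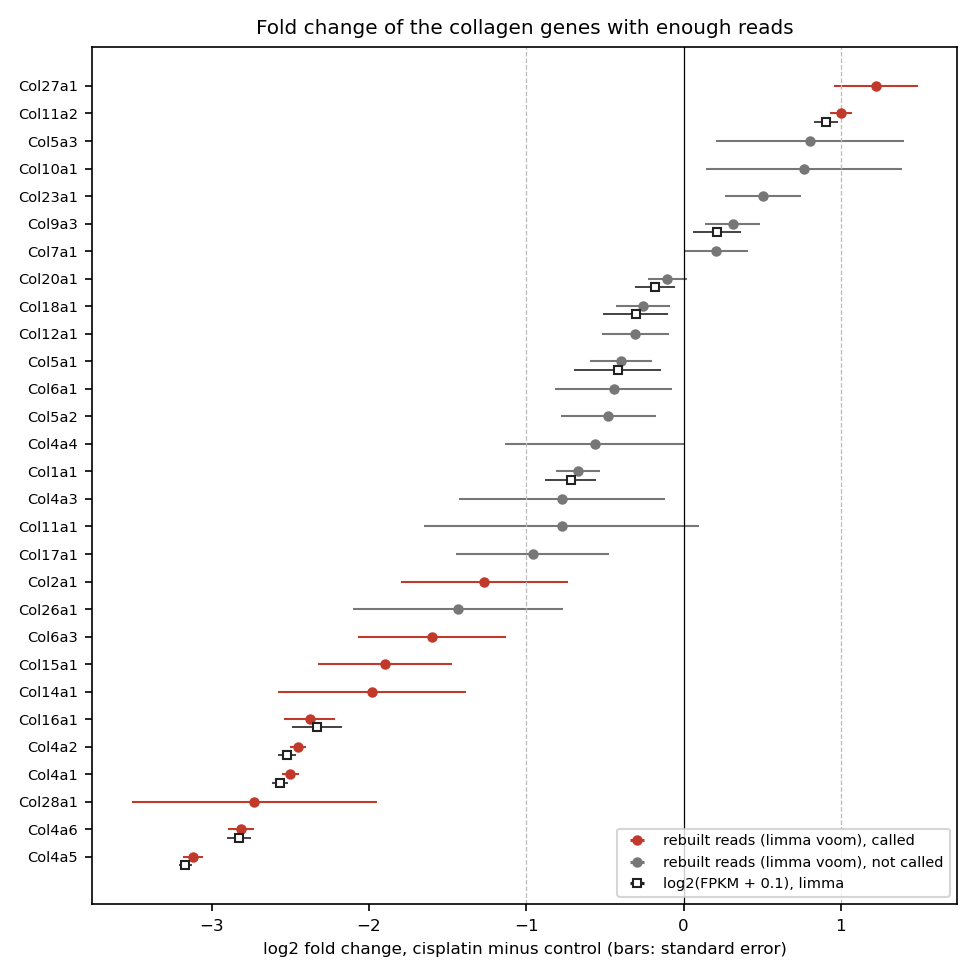
Log2 fold change (cisplatin minus control, bars are standard errors) of the 29 collagen genes with enough reads for limma voom (circles, red where called) and of the 11 tested on log2(FPKM + 0.1) (open squares). The 4 collagen IV chains and Col16a1 lie between −3.17 and −2.33 with short bars, whereas low genes such as Col28a1 have long bars.

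None of the 4 transmembrane collagens reached the level of the FPKM test. Col23a1 was at 0.369 to 0.401 FPKM in control libraries and at 0.489 to 0.539 FPKM in cisplatin libraries, without overlap, and its voom log2 fold change of 0.50 ± 0.24 did not pass (SE, adjusted p = 0.0794). Col17a1, a hemidesmosome component of epithelia, had 30 to 90 reads in control and 13 to 37 reads in cisplatin libraries, which overlapped. Col13a1 and Col25a1 had at most 9 and 14 reads in any library. Of the 6 collagen VI genes, Col6a1 had 27 to 79 reads per library with overlapping groups, and its partner Col6a2 had 17 reads over all 6 libraries.

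Genes that make, process, bind and degrade collagen were counted next, from 7 lists covering 77 genes. Of these, 54 were tested, 31 were called lower and 2 higher by limma, where 12.8% and 4.11% of all tested genes were called. Their median log2 fold change was −1.29, and that of all tested genes was 0.03. By list, the median of the tested genes was −2.99 for lysyl oxidases, −2.33 for matrix partners, −1.74 for procollagen proteinases and enhancers, −1.45 for hydroxylases and glycosyltransferases, −0.49 for chaperones and export, −0.15 for receptors and −0.16 for collagenases and uptake.

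Hydroxylases and glycosyltransferases modify the chains before they fold, and 14 of 15 were tested, with 10 called lower and 0 higher. P4ha1 and P4ha2 encode catalytic subunits of prolyl 4-hydroxylase. P4ha1 was at 44.9, 43.4 and 46.3 FPKM in control and at 12.7, 12.9 and 11.2 FPKM in cisplatin libraries (log2 fold change −1.86 ± 0.06, SE, limma adjusted p = 1.06e-06). P4ha2 went from 20.9 ± 0.922 to 0.907 ± 0.189 FPKM (SD, n = 3 each, log2 fold change −4.40, limma adjusted p = 1.01e-06). Plod2, the lysyl hydroxylase of the telopeptides, was at 32.7, 31.0 and 30.5 FPKM in control and at 2.80, 2.48 and 2.53 FPKM in cisplatin libraries (−3.54 ± 0.06, SE, limma adjusted p = 1.1e-07). None of the 3 overlapped between groups.

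Of the 11 chaperone and export genes, all tested, 4 were called lower and 0 higher. Serpinh1 encodes HSP47, the collagen-specific chaperone. Serpinh1 was at 67.9, 68.6 and 62.3 FPKM in control and at 17.2, 17.01 and 19.6 FPKM in cisplatin libraries (log2 fold change −1.88 ± 0.07, SE, limma adjusted p = 1.46e-06). Fkbp10, a prolyl isomerase of procollagen, went from 12.2 ± 0.272 to 4.004 ± 0.381 FPKM (SD, n = 3 each, log2 fold change −1.59, limma adjusted p = 5.9e-06). The other 7 genes of the list had log2 fold changes from −0.58 to 0.23.

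Outside the cell, procollagen proteinases and enhancers had 4 of 8 genes tested and 3 called lower, and lysyl oxidases had 5 of 5 tested and 4 called lower. Pcolce, the enhancer of C-propeptide removal, went from 76.1 ± 0.791 to 19.0 ± 0.406 FPKM (SD, n = 3 each, log2 fold change −1.99, limma adjusted p = 8.26e-08). Lox, which starts the crosslinking of fibrils, was at 34.6, 34.7 and 33.9 FPKM in control and at 1.22, 1.07 and 0.686 FPKM in cisplatin libraries. The Lox log2 fold change was −5.02 ± 0.18 (SE, limma, adjusted p = 1.64e-06), the largest fall among the 54 tested pathway genes. Loxl2, whose enzyme crosslinks collagen IV, went from 38.7 ± 3.35 to 2.53 ± 0.285 FPKM (SD, n = 3 each, log2 fold change −3.88, limma adjusted p = 3.52e-07).

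Of 21 fibril-associated and basement membrane partners, 11 were tested, 8 were called lower and 1 higher. Sparc, a collagen-binding matricellular protein, was at 203, 206 and 197 FPKM in control and at 29.1, 26.9 and 27.5 FPKM in cisplatin libraries (log2 fold change −2.86 ± 0.04, SE, limma adjusted p = 6.26e-08). Bgn, the proteoglycan biglycan, went from 36.0 ± 1.75 to 6.09 ± 0.339 FPKM (SD, n = 3 each, log2 fold change −2.55, limma adjusted p = 2.52e-07). The gene called higher, Tgfbi, a secreted collagen-binding protein, rose from 0.648 ± 0.173 to 1.90 ± 0.231 FPKM (SD, n = 3 each, log2 fold change 1.44, limma adjusted p = 0.00125). It fell short of the 2-fold limit with a pseudocount of 1 (0.82) and when centred on the T-cell identity genes (0.85), and was named after its value was seen.

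Collagen receptors had 5 of 10 genes tested, with 2 called lower and 1 higher. Ddr1, the discoidin receptor of epithelia, was at 52.1, 54.3 and 50.9 FPKM in control and at 9.30, 9.56 and 9.91 FPKM in cisplatin libraries (log2 fold change −2.44 ± 0.04, SE, limma adjusted p = 1.09e-07). Itgb1, the beta1 chain shared by all collagen-binding integrins and expressed by T cells too, went from 77.6 ± 1.08 to 36.7 ± 1.81 FPKM (SD, n = 3 each, log2 fold change −1.08, limma adjusted p = 1.99e-06). With voom, where the median of all tested genes was 0.10, Itgb1 fell just short of the 2-fold limit. Itga1, the alpha1 chain found on tissue-resident T cells, was below the level of the test at 0.111 ± 0.0113 FPKM in control and 0.130 ± 0.0128 FPKM in cisplatin libraries (SD, n = 3 each). The receptor called higher was Lair1, an inhibitory collagen receptor of leukocytes, at 0.758, 0.866 and 0.793 FPKM in control and 1.78, 1.66 and 1.74 FPKM in cisplatin libraries. Its log2 fold change of 1.01 ± 0.14 (SE, limma, adjusted p = 0.00088; named after its value was seen) lay at the 2-fold limit and dropped below it as TPM (0.996), with a pseudocount of 1 (0.60), when centred on the T-cell identity genes (0.43) and without cisplatin replicate 1 (0.99) or control replicate 1 (0.98). Of the 8 genes for collagenases and collagen uptake, 4 were tested and 0 were called in either direction. On adjusted p alone, 1 of them was lower, where 29.0% of all tested genes were.

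**Figure D4:**
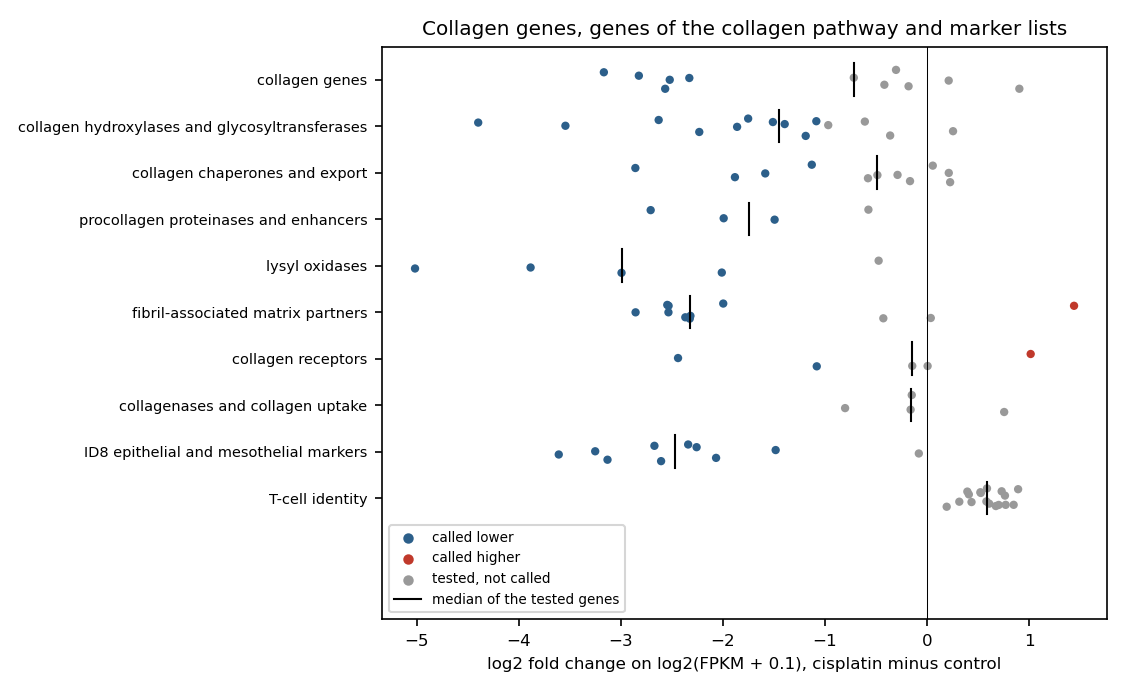
Log2 fold change on log2(FPKM + 0.1) (cisplatin minus control) of each tested gene in the collagen family, the 7 pathway lists, the ID8 markers and the T-cell identity genes; bars mark the median of the tested genes and colours the calls. Lysyl oxidases and ID8 markers centre at −2.99 and −2.47, whereas T-cell identity genes lie between 0.19 and 0.89.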

How the data were processed

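RNA from 6 T-cell libraries (3 cisplatin, 3 control, grouped by the sample labels) was purified on poly-T beads and sequenced. The authors deposited FPKM for 54532 genes in a single table with 0 unmapped sample columns. The submitters' processing notes name fastp, HISAT2 2.0.5, featureCounts 1.5.0-p3 and mm10, whereas the study's methods name LifeScope for alignment and counting and DESeq2 for differential expression. Which of these made the table, the strand setting and the handling of multi-mapped reads are not given in the sources used here. All 44 collagen genes had the coordinates of GENCODE M21 (GRCm38), as had 53585 of 54495 genes in both. Whole reads were rebuilt from FPKM, gene length and the step of each library, and 100% of values lay within 0.1 of a whole read. The FPKM denominators were 1.03–1.05 times the rebuilt reads in cisplatin and 0.976–0.982 times in control libraries. Replicates were not identical. The floor of 3 reads covers counting error only.

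Groups were compared in limma 3.58.1 (R 4.3.3; lmFit, eBayes with trend) on log2(FPKM + 0.1), over the 15874 genes that averaged 0.5 FPKM or more, with Benjamini-Hochberg adjustment over all of them. A call needed an adjusted p under 0.05 together with a 2-fold difference. The alternatives were pseudocounts of 1 and 0.01, no filter, a filter of 5 FPKM, median-of-ratios, quantile and T-cell-centred scaling, TPM, no trend, adjusted p alone, limma voom on rebuilt reads (at least 10 in at least 3 libraries), the replicate number as a block, and leaving out each library. The scripts were tested on simulated data. The collagen genes and the lists were chosen with earlier results of these data known. Named in full were collagen genes that reached 5 FPKM in either group mean or were called. Per pathway list, up to 2 of the largest falls and 2 of the largest rises were named, among called genes of that level without overlap. Serpinh1, P4ha1, Plod2, Lox and Itga1 were named by role. Python 3.11.15 (pandas 2.3.3, numpy 2.4.6, scipy 1.17.1, matplotlib 3.10.9) served for tables and plots.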

Additional observations from a re-analysis of the deposited data

How the results depend on the processing

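The 25 genes named with a test gave 417 values over the alternatives. Of these, 403 kept their direction and their side of the threshold, 8 no longer passed it, 4 newly passed it and 2 changed direction (Col20a1, 0.0151 under quantile normalization, and Col9a3, −0.37 when centred on the T-cell identity genes). The 5 collagen genes called lower became 10 with voom, which tested 29 instead of 11, 7 when T-cell centred, 6 on adjusted p alone and 4 with a filter of 5 FPKM, and stayed at 5 under the other settings, leaving out each library included. The 31 pathway genes called lower became 39 when T-cell centred, 40 on adjusted p alone, 33 with voom, 26 with a pseudocount of 1 and 21 with a filter of 5 FPKM, and were 30 to 32 otherwise. These counts moved with those of all genes, of which 2034 were called lower in the main setting and 3789 when T-cell centred. Over all genes there were 2423 with voom, 1451 with a pseudocount of 1 and 903 with a filter of 5 FPKM. On adjusted p alone, 29.0% of all tested genes were lower. The 0 collagen genes called higher became 1 under quantile normalization, 1 on adjusted p alone and 2 with voom. Among pathway genes, the 2 called higher became 1 as TPM, 0 when centred on the T-cell identity genes, 0 with a filter of 5 FPKM (which tested 31), 0 with a pseudocount of 1, 4 on adjusted p alone and 1 to 2 when each library was left out. Across all genes, the 653 called higher became 625 as TPM, 979 under quantile normalization and 1128 with voom. They were 137 when T-cell centred, 311 with a pseudocount of 1 and 242 with a filter of 5 FPKM. On adjusted p alone, 27.5% of all tested genes were higher. The mean log2 level of the 43 collagen genes with reads differed by −0.47 (cisplatin minus control), by −0.76 when T-cell centred, by −0.30 with a pseudocount of 1 and by −0.68 with 0.01. The log2 difference of the summed FPKM was −1.94, and −2.53 when T-cell centred. The causes were not tested. Same-numbered libraries shared little deviation from their group means (correlations 0.0229, −0.0630 and −0.0207), which cannot tell whether the cultures were paired. With the replicate block, 5 collagen genes were lower and 0 higher, and 2011 genes in all were lower and 651 higher. Depth limits the 15 collagen genes with at most 21 reads in any library.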

Other observations

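Proteins outside the collagen family also carry collagen triple helices, and 35 of their genes were listed after the data were seen. Of these, 10 were tested, 5 were called higher and 3 lower by limma, where 4.11% and 12.8% of all tested genes were called. With voom, 11 were tested, with 5 called higher and 3 lower, where 6.08% and 13.1% of all genes it tested were called. The other settings were not examined for these genes. Over all genes, those called higher went from 653 to 137 when centred on the T-cell identity genes, so rises near the 2-fold limit may depend on the scaling. The complement genes C1qa, C1qb and C1qc, products of macrophages, rose together. C1qb was at 1.01, 0.981 and 0.599 FPKM in control and at 6.39, 6.77 and 5.67 FPKM in cisplatin libraries (log2 fold change 2.75 ± 0.20, SE; limma, adjusted p = 3.46e-05). C1qa and C1qc had log2 fold changes of 2.46 and 1.61 (limma, adjusted p = 0.000756 and 0.000427), and the macrophage scavenger receptor gene Msr1 one of 1.16 (adjusted p = 0.00235). The fifth, Emid1, had 1.26 (adjusted p = 9.83e-05). The 3 C1q genes are themselves among the 11 myeloid markers, whose sums were 129–148 FPKM in cisplatin and 65.9–70.2 FPKM in control libraries, and the part of myeloid cells was not tested.

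The lower genes belonged to the C1q and TNF-related family of secreted proteins. C1qtnf1 was at 26.4, 29.0 and 24.1 FPKM in control and at 3.15, 2.78 and 3.24 FPKM in cisplatin libraries (log2 fold change −3.07 ± 0.09, SE; limma, adjusted p = 5.67e-07). C1qtnf6 and C1qtnf12 had log2 fold changes of −1.52 and −1.22 (limma, adjusted p = 9.64e-06 and 0.000224).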
